A study of Mus musculus with 12 samples.

Results

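The genes described here are 10 members of the transforming growth factor beta (TGF-beta) and bone morphogenetic protein (BMP) signalling pathways: Tgfb1, Tgfb2, Tgfb3, Tgfbr1, Tgfbr2, Bmp4, Smad6, Smad7, Id1 and Id3. They were chosen by name, with earlier results of these data known, so counts among them are descriptive. On the array 19 probe sets named one of them and no other gene. Each gene was read from the probe set that was brightest on average across the 12 arrays, and any others served as a check. Tgfb3, Bmp4, Smad6, Id1 and Id3 each had a single probe set and so no such check. All 10 passed the filter on low values, with all 12 values above the median of all values, and they form 10 of the 11717 genes tested. None of the 10 lies on chromosome 17, which holds Notch3.

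Vessel fragments from cerebrum and cerebellum of the same mice were profiled on Affymetrix mouse expression arrays. The mice carried a Notch3 knockout or were littermate controls, were 2 months old and had a C57BL/6 background. The 12 arrays formed 4 groups of 3: knockout cerebral, control cerebral, knockout cerebellar and control cerebellar vessels, 1 array for each region of each mouse. The sources used here do not say how the knockout line was made or how vessels were isolated. Notch3 is a receptor of mural cells, the smooth muscle cells and pericytes that wrap small vessels.

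TGF-beta ligands are secreted in a latent form and, once released, bind a type II receptor that activates a type I receptor. The activated type I receptor phosphorylates Smad proteins, which enter the nucleus and regulate transcription, while BMP ligands act through their own receptors and another set of Smads. Smad6 and Smad7 are inhibitory Smads that feed back on the pathway, and Id1 and Id3 are well-known targets of BMP signalling. In vessels, TGF-beta signals pass between endothelial and mural cells and take part in mural cell differentiation.

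Expression is given on the log2 scale, as deposited for each probe set. The median over all probe sets and arrays, 3.27, served as the floor below which a probe set was taken as dim. Array medians lay between 3.24 and 3.30, and arrays of a group correlated across genes with r from 0.991 to 0.996. Notch3 read 2.48 to 3.58 on the 6 knockout arrays and 10.84 to 12.02 on the 6 control arrays, which matches the labels. No tested marker of smooth muscle (9), pericytes (9) or endothelium (10) was at or under the floor on all arrays of a group. The same held for markers of microglia (10), astrocytes (7) and choroid plexus (5), so the vessel fragments were not free of signal from markers of other cells.

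The question put to each gene was whether its level in vessels without Notch3 differed from that in control vessels. A gene is said to be called when its adjusted p fell under 0.05 (limma, two-sided, Benjamini-Hochberg adjustment over all genes tested). In cerebral vessels 2 of the 10 were called, Tgfb3 lower and Tgfbr1 higher, where 6.38% of all genes were called (2.45% higher and 3.93% lower). In cerebellar vessels 3 of the 10 were called, Tgfb3 and Bmp4 lower and Smad6 higher, against 4.22% of all genes (1.06% higher and 3.17% lower). When each mouse was represented by the mean of its 2 regions, 3 mice against 3, only Tgfb3 was called, 1 of 10 against 4.03% of all genes. The median log2 fold change of the 10 was 0.04 in cerebral and 0.10 in cerebellar vessels, against -0.01 and 0.01 over all genes.

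**Figure D1:**
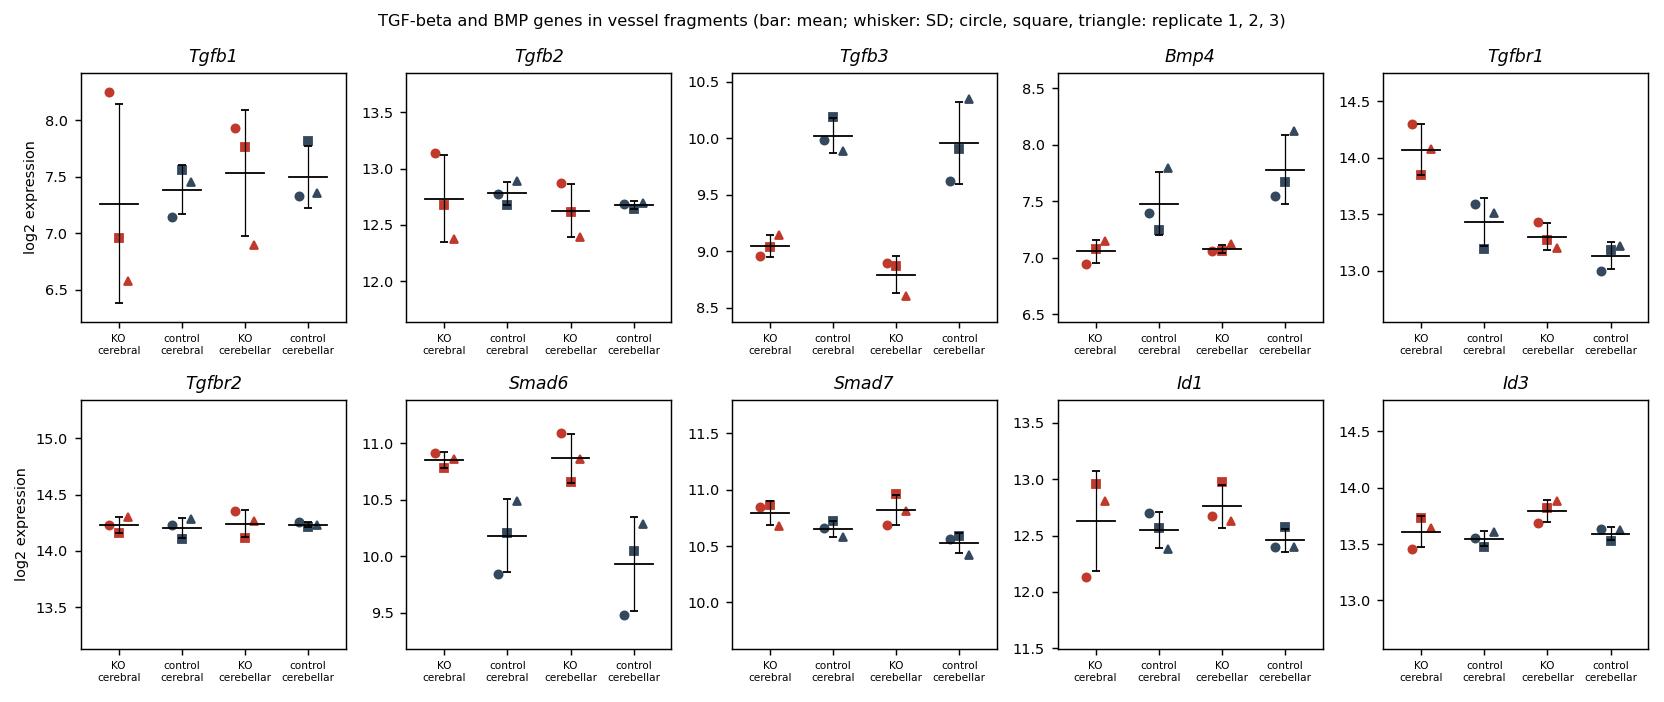
Log2 expression (y axis, each panel spanning the same range) of the 10 genes on each array, by group; points are arrays, bars means and whiskers SD (n = 3 each), and knockout groups stand left of their controls. Knockout Tgfb3 values lie between 8.60 and 9.15, under all control values of 9.62 to 10.35.

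Tgfb3, a TGF-beta ligand, was lower in knockout vessels of both regions. It read 8.95, 9.04 and 9.15 in knockout cerebral vessels, against 9.99, 10.19 and 9.89 in control cerebral vessels. It read 8.90, 8.87 and 8.60 in knockout cerebellar vessels, against 9.62, 9.91 and 10.35 in control cerebellar vessels. The groups did not overlap in either region. In cerebral vessels the log2 fold change was -0.98 (SE 0.16, 3 arrays in each group, limma adjusted p = 0.00665), 1.97-fold lower. It was -1.17 in cerebellar vessels (SE 0.16, limma adjusted p = 0.00232), 2.25-fold lower. Averaged over both regions, the mice read 8.93, 8.96 and 8.88 without Notch3 and 9.81, 10.05 and 10.12 with it, a log2 fold change of -1.07 (SE 0.09, limma adjusted p = 0.0027). Subtracting the cerebral effect from the cerebellar one gave -0.19 (95% interval -0.71 to 0.32).

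Markers of smooth muscle moved in the same direction as Tgfb3. Of 9 tested, 7 were called lower in knockout cerebral vessels and 7 in knockout cerebellar vessels, with median log2 fold changes of -0.86 and -1.02. Their mean level per array was 9.73 to 9.95 in knockout and 10.68 to 10.98 in control cerebral vessels, and 9.73 to 10.10 in knockout and 10.68 to 11.15 in control cerebellar vessels. Of 9 pericyte markers 5 were called lower in cerebral and 4 in cerebellar vessels. Endothelial markers had median log2 fold changes of 0.06 and 0.04, and 0 of 10 were called by limma in either region, with 1 in each at an unadjusted p under 0.05. The part of these markers in the result for Tgfb3 was not tested. In such bulk samples fewer cells of a type and less RNA per cell cannot be told apart.

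Bmp4, a BMP ligand, was called lower in knockout cerebellar vessels only. In cerebellar vessels it read 7.06, 7.06 and 7.12 in knockout mice and 7.55, 7.67 and 8.12 in controls, a log2 fold change of -0.70 (SE 0.16, limma adjusted p = 0.0368), 1.62-fold lower. In cerebral vessels it read 6.94, 7.07 and 7.15 in knockout mice and 7.40, 7.25 and 7.79 in controls. Neither pair of groups overlapped, but the cerebral log2 fold change of -0.42 (SE 0.16, limma adjusted p = 0.166) was not called. Nor was the change per mouse, -0.56 (SE 0.14, limma adjusted p = 0.102). The knockout arrays lay close together, with an SD of 0.04 in cerebellar vessels, against 0.31 in cerebellar controls. The cerebellar call was lost in 8 of 12 runs that left out 1 array: each knockout cerebellar replicate, control cerebellar replicates 2 and 3, knockout cerebral replicates 2 and 3 and control cerebral replicate 1 (adjusted p from 0.0524 to 0.105 in these runs). It was also lost with no filter (adjusted p = 0.0781) and with only the cerebellar arrays in the fit (adjusted p = 0.0801); whether the knockout effect on Bmp4 differed between regions was tested and not called (-0.28, limma adjusted p = 0.999).

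The 250 bases before the Bmp4 start are shown because Bmp4 is one of the called genes with a promoter entry (RefSeq, GRCm38.p6, chr14:46390670-46390919, minus strand, 5′ to 3′). The window was searched on both strands for the RBPJ core TGGGAA, the site of the Notch pathway's DNA-binding protein, and for GGCGCC, a GC-rich box bound by Smads. Neither was found in it.
Bmp4: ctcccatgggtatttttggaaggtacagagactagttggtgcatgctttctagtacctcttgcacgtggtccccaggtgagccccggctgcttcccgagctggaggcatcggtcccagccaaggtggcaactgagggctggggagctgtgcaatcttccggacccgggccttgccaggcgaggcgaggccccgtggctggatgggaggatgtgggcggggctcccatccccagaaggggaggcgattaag
Of 32851 promoters in the table, 21.6% held the RBPJ core in a window of this length and 9.59% held GGCGCC.

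The other ligands gave no called difference. Tgfb2 read 13.14, 12.68 and 12.38 in knockout and 12.78, 12.68 and 12.89 in control cerebral vessels, and 12.87, 12.61 and 12.40 in knockout and 12.69, 12.64 and 12.70 in control cerebellar vessels. The log2 fold change per mouse was -0.05 (95% interval -0.43 to 0.33), and the 3 other probe sets of Tgfb2 were not called either. Tgfb1 read 8.25, 6.95 and 6.58 in knockout cerebral vessels, against 7.14, 7.56 and 7.45 in controls. Its cerebellar values were 7.94, 7.76 and 6.90 in knockout mice and 7.33, 7.81 and 7.36 in controls. The knockout arrays of Tgfb1 were the more scattered, with an SD of 0.88 against 0.22 in cerebral vessels, and knockout replicate 1 was the highest in both regions. The interval of its change per mouse ran from -0.88 to 0.78. A second probe set of Tgfb1 lay under the floor on all 12 arrays, between 2.28 and 3.01.

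Tgfbr1, the type I receptor of TGF-beta, was higher in knockout vessels of the cerebrum. It read 14.30, 13.84 and 14.08 in knockout cerebral vessels, against 13.59, 13.19 and 13.51 in controls, with no overlap. The log2 fold change was 0.64 (SE 0.13, limma adjusted p = 0.0189), 1.56-fold higher. In cerebellar vessels Tgfbr1 read 13.43, 13.27 and 13.20 in knockout mice and 13.00, 13.19 and 13.22 in controls. These groups overlapped, and the log2 fold change of 0.17 (SE 0.13, limma adjusted p = 0.607) was not called. The difference between the regions' effects was -0.48 (95% interval -0.90 to -0.06), with an unadjusted p of 0.0302 and a limma adjusted p of 0.999. On the mean per mouse the log2 fold change was 0.41 (SE 0.09, limma adjusted p = 0.0831), also not called.

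The cerebral call of Tgfbr1 depended on single arrays. It was lost without control cerebral replicate 2 (adjusted p = 0.0597), knockout cerebral replicate 1 (0.0653) or knockout cerebral replicate 3 (0.0627), and when the 6 cerebral arrays were fitted alone (0.109). Of the 2 other probe sets of Tgfbr1, one was under the floor, between 2.02 and 2.05 on all 12 arrays. The other was above the floor on all 12, at 3.40 to 3.44 on 11 arrays and at 4.24 in knockout cerebral replicate 1. On its own it gave a cerebral log2 fold change of 0.29 (limma adjusted p = 0.401), not called. The mean of both probe sets above the floor gave 0.46 (limma adjusted p = 0.0746), so the cerebral call was lost there too.

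Microglia markers moved with Tgfbr1. All 10 tested had a positive log2 fold change in knockout cerebral vessels, 4 of them called, with a median of 0.88; in cerebellar vessels 0 of 10 were called by limma and the median was 0.11, with 1 marker under 0.05 before adjustment. Their mean level was 12.04 to 12.74 in knockout and 11.24 to 11.80 in control cerebral vessels, without overlap. In cerebellar vessels it was 11.16 to 11.33 in knockout mice and 10.94 to 11.28 in controls, with overlap. None of the 10 was at the floor in any group. Their part in the result for Tgfbr1 was not tested.

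**Figure D2:**
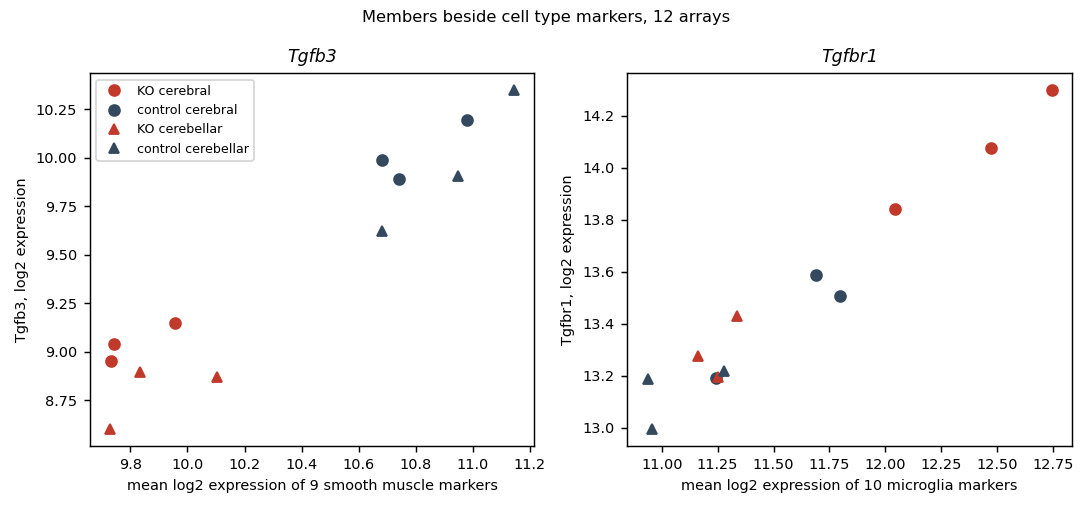
Left, Tgfb3 against the mean of 9 smooth muscle markers; right, Tgfbr1 against the mean of 10 microglia markers (both axes log2 expression, 1 point per array, 12 arrays of 6 mice). The 6 knockout arrays sit at the low end on the left, and the 3 knockout cerebral arrays at the high end on the right.

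The promoter of Tgfbr1 is shown for the same reason as that of Bmp4, at the first of its 2 starts (RefSeq, GRCm38.p6, chr4:47352972-47353221, plus strand, 5′ to 3′). It held GGCGCC once, in capitals, 233 bases before the start, and no RBPJ core. The window before the other start, not shown, held neither.
Tgfbr1: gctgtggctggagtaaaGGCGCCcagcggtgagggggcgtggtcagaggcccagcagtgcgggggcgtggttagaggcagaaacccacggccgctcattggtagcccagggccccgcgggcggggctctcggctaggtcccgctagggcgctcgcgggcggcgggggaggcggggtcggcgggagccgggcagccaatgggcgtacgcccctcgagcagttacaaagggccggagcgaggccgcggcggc

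Tgfbr2, the type II receptor that Tgfbr1 works with, gave no called difference. It read 14.23, 14.16 and 14.30 in knockout cerebral vessels, 14.23, 14.11 and 14.28 in control cerebral vessels, 14.35, 14.11 and 14.26 in knockout cerebellar vessels and 14.25, 14.21 and 14.23 in control cerebellar vessels. The log2 fold change was 0.02 in cerebral (95% interval -0.14 to 0.19) and 0.01 in cerebellar vessels (-0.15 to 0.17). These were the narrowest intervals among the 10 genes, and each excludes a change as large as that of Tgfb3 in either direction. Of its other probe sets one lay under the floor on all arrays, and one, at 5.34 to 5.91, was not called.

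Smad6, the inhibitory Smad that acts mainly on BMP signals, was called higher in knockout cerebellar vessels. In cerebellar vessels it read 11.09, 10.66 and 10.86 in knockout mice, against 9.48, 10.04 and 10.28 in controls. The log2 fold change was 0.94 (SE 0.21, limma adjusted p = 0.0347), 1.91-fold higher. In cerebral vessels it read 10.92, 10.78 and 10.86 in knockout mice and 9.84, 10.21 and 10.49 in controls, a log2 fold change of 0.67 (SE 0.21, limma adjusted p = 0.0956) that was not called. Knockout and control arrays did not overlap in either region. The control values were spread more widely, and control replicate 1 was the lowest in both regions. Per mouse, the levels were 11.00, 10.72 and 10.86 without Notch3 and 9.66, 10.13 and 10.39 with it, a log2 fold change of 0.80 (SE 0.19, limma adjusted p = 0.0853).

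The cerebellar call of Smad6 was lost in 7 of 12 runs that left out 1 array. These were the runs without control cerebellar replicate 1 or 2, knockout cerebellar replicate 1 or 3, knockout cerebral replicate 1 or 3 or control cerebral replicate 2, with adjusted p from 0.0511 to 0.116. It was also lost with no filter (0.0781) and with only the 6 cerebellar arrays (0.102). With array weights the cerebral change was called as well, at 0.88 (adjusted p = 0.0144). A fit of the 12 arrays with the mouse as a random block called the mean change of Smad6 (0.80, adjusted p = 0.0102) and that of Bmp4 (-0.56, adjusted p = 0.0168). The promoter of Smad6 (RefSeq, GRCm38.p6, chr9:64022060-64022309, minus strand, 5′ to 3′) held neither the RBPJ core nor GGCGCC.
Smad6: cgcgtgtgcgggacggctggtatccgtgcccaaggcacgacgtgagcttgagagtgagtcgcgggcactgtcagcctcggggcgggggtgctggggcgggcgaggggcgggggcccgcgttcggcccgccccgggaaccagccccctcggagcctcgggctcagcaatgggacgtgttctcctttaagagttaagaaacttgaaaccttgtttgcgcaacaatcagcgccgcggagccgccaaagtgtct
No RBPJ core was found in the 8 windows of the 7 genes with a promoter entry. This says only that these letters are not in the windows. Tgfb3 had no promoter entry.

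Smad7, the inhibitory Smad that also acts on TGF-beta signals, differed by little. Its brighter probe set read 10.69, 10.96 and 10.81 in knockout and 10.56, 10.59 and 10.42 in control cerebellar vessels, without overlap. The log2 fold change of 0.29 (SE 0.08, limma adjusted p = 0.094) was not called. In cerebral vessels it read 10.85, 10.86 and 10.67 in knockout mice and 10.66, 10.72 and 10.58 in controls, with overlap, a log2 fold change of 0.14 (SE 0.08, limma adjusted p = 0.384). The array maker marks this probe set as one whose probes may also match other transcripts. The other, without that mark, averaged 10.17 ± 0.12 in knockout and 9.95 ± 0.14 in control cerebral vessels, and 9.95 ± 0.09 in knockout and 9.69 ± 0.10 in control cerebellar vessels (SD, n = 3 each).

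Id1 and Id3, inhibitors of basic helix-loop-helix transcription factors and direct targets of BMP signals, were not called. In cerebellar vessels Id1 read 12.68, 12.97 and 12.63 in knockout mice, against 12.39, 12.57 and 12.40 in controls. Id3 read 13.69, 13.82 and 13.88 in knockout cerebellar vessels, against 13.63, 13.52 and 13.62 in controls. Both genes had knockout values above all control values there. Their log2 fold changes were 0.30 (95% interval -0.12 to 0.73, limma adjusted p = 0.489) and 0.20 (0.02 to 0.38, limma adjusted p = 0.235). In cerebral vessels the groups overlapped. Id1 read 12.13, 12.95 and 12.81 in knockout and 12.70, 12.57 and 12.38 in control cerebral vessels. Id3 read 13.46, 13.73 and 13.64 in knockout and 13.55, 13.48 and 13.61 in control cerebral vessels. Knockout replicate 1 was the lowest of the 6 cerebral arrays for both genes.

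Over the 10 genes, groups did not overlap for 4 in cerebral vessels, against 24.4% of all genes, and for 6 in cerebellar vessels, against 22.1%. On the mean per mouse 5 did not overlap, against 26.3% of all genes. The 4 were Tgfb3 and Bmp4 below and Tgfbr1 and Smad6 above the controls, and in the cerebellum Smad7, Id1 and Id3 took the place of Tgfbr1. A difference between regions in the knockout effect was called by limma for 0 of the 10, against 0.0427% of all genes. For 1 of them, Tgfbr1, the unadjusted limma p was under 0.05, and its interval of -0.90 to -0.06 lay below 0. Equal effects cannot be inferred from the lack of calls, because intervals were as wide as -1.09 to 1.41 for Tgfb1.

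**Figure D3:**
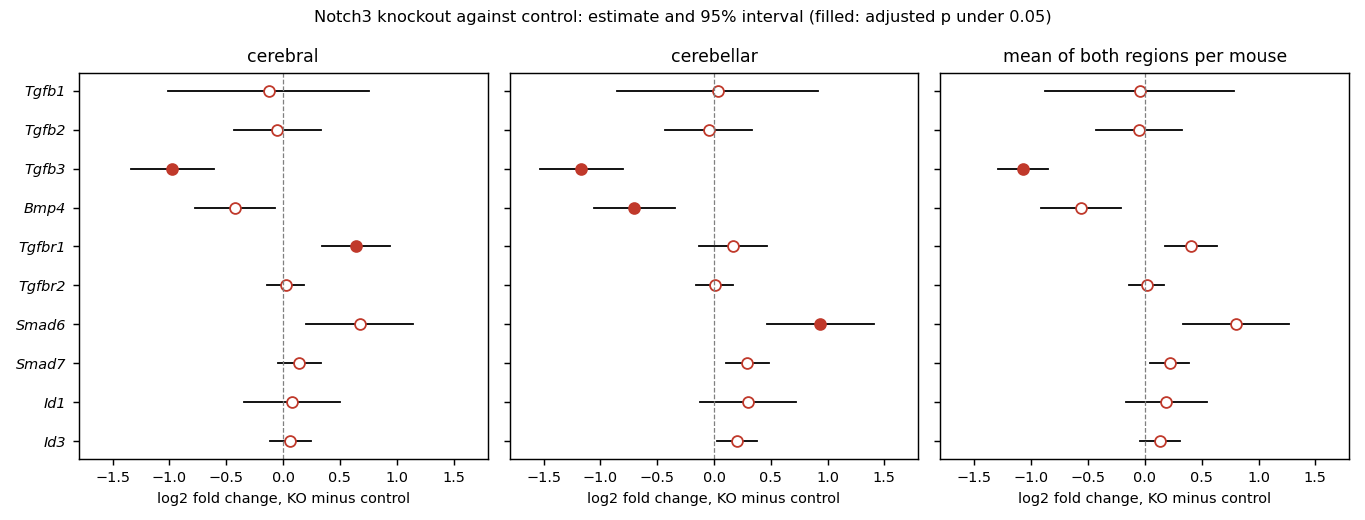
Log2 fold change, knockout minus control (x axis), of each gene with its 95% interval, in cerebral vessels, cerebellar vessels and on each mouse averaged over regions; filled points passed an adjusted p of 0.05. Tgfb3 is filled in all 3 panels, at -0.98, -1.17 and -1.07.

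The regions were also compared within each genotype, cerebellar against cerebral. In knockout mice Tgfbr1 alone of the 10 was called, lower by 0.77 log2 in cerebellar vessels (SE 0.13, limma adjusted p = 0.00849), where 6.8% of all genes were called and 2.96% were called lower. Its knockout values were 13.20 to 13.43 in cerebellar and 13.84 to 14.30 in cerebral vessels. Groups did not overlap for Tgfbr1 and Tgfb3, 2 of 10, against 25.4% of all genes. In control mice 0 of 10 were called by limma, and 0 had an unadjusted p under 0.05, where 2.29% of all genes were called. The log2 difference of Tgfbr1 in controls was -0.30 (95% interval -0.59 to 0.00151). Microglia markers again moved with it: 9 of 10 were called lower in cerebellar than in cerebral vessels of knockout mice and 0 of 10 in controls (6 at an unadjusted p under 0.05), with medians of -1.23 and -0.52, and their part was not tested. These comparisons use the same arrays as those between genotypes. The fit did not pair the 2 regions of a mouse. With the mouse as a random block, 1 of the 10 was called in knockout and 0 in control mice. Over all genes, 1947 and 966 were called with the block, against 797 and 268 without it.

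The genes whose pattern over the 12 arrays was most like that of each called gene were found by Pearson's r among all tested genes. The arrays come from 6 mice and share the group differences, so r describes likeness only. For Tgfb3 they were Synpo2, an actin-binding protein of muscle (r = 0.985), Slc22a2, an organic cation transporter (0.970), Tbx18, a transcription factor of mural cells (0.965), Ntn4, a netrin of basement membranes (0.965), and Nxnl2 (0.964). All 5 were called lower in both regions. Synpo2 is one of the 9 smooth muscle markers. For Tgfbr1 they were Otulinl (0.990), Ikzf1, a transcription factor of blood cells (0.987), Syngr1 (0.985), Pde3b, a phosphodiesterase (0.985), and Tmem119, a microglia marker (0.982). All 5 were called higher in knockout cerebral vessels, by 0.84 to 1.34 log2, and none was called in cerebellar vessels. For Bmp4 they were Cdh4, a cadherin (0.931), Dmpk, a muscle kinase (0.928), Asb5 (0.918), Itpk1 (0.906) and Bcr (0.897), all called lower in both regions. For Smad6 they were Cdk19, a kinase of the Mediator complex (0.964), Srsf5, a splicing factor (0.950), Swap70 (0.935), Hprt (0.932) and Tmem14c (0.924), of which Cdk19 and Swap70 were called higher in both regions.

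Among 67 further pathway genes 49 were tested. In cerebral vessels 1 was called higher and 5 lower, and in cerebellar vessels 1 and 3, with median log2 fold changes of -0.03 and -0.04. Over all genes 6.38% were called in cerebral and 4.22% in cerebellar vessels. Per mouse 2 were higher and 4 lower, where 4.03% of all genes were called. By role, the ligands held most of the lower calls, 3 of 8 in cerebral and 2 of 8 in cerebellar vessels. The share of all genes called lower was 3.93% and 3.17%. Inhbb, a subunit of activin and inhibin, averaged 6.18 ± 0.30 in knockout and 7.18 ± 0.35 in control cerebral vessels (SD, n = 3 each). In cerebellar vessels it averaged 5.89 ± 0.21 in knockout mice and 6.86 ± 0.20 in controls. Its log2 fold changes were -0.99 and -0.97 (limma adjusted p = 0.0158 and 0.0225). The probe set of Nodal, a ligand known from the embryo, had log2 fold changes of -0.69 and -0.66 (adjusted p = 0.0234 and 0.0368). Bmp5 was called in cerebral vessels, at -0.97 (adjusted p = 0.0232), with a value in cerebellar vessels of -0.72 that was not called.

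Of 6 further type I receptors, Bmpr1a, a BMP receptor, was lower in both regions, at -0.45 and -0.38 (limma adjusted p = 0.0156 and 0.0429). Of 3 further type II receptors Acvr2a, which binds activins, was lower in cerebral vessels (-0.49, adjusted p = 0.0379). Rgmb, a BMP co-receptor of the repulsive guidance molecule family, was the only one of 4 co-receptors called, and it was higher. It averaged 8.94 ± 0.26 in knockout and 7.97 ± 0.10 in control cerebral vessels, and 8.51 ± 0.19 in knockout and 7.90 ± 0.08 in control cerebellar vessels (SD, n = 3 each). The log2 fold changes were 0.97 and 0.60 (limma adjusted p = 0.00184 and 0.0296). Rgmb lies on chromosome 17 within 20 Mb of Notch3, the only tested gene of the list that does; whether that place bears on its level was not tested. Of the smooth muscle and pericyte markers given beside Tgfb3, those called were lower in the same groups as Inhbb, Nodal, Bmp5 and Bmpr1a. Among the pericyte markers, 4 of 9 in cerebral and 5 of 9 in cerebellar vessels were not called. Among cerebellar neuron markers 2 of 5 were called higher in knockout cerebellar vessels and 1 of 5, Zic1, lower in knockout cerebral vessels (-0.59). Zic1 was also lower in knockout cerebellar vessels, at 12.83 against 13.33 on average, though not called. It was unlike the rest of its list, reading 12.03 to 12.92 in cerebral vessels, where the others reached at most 3.88. The part of these markers in the results was not tested. Per mouse Gdf10, a BMP-like ligand, was called higher (0.57), with values of -0.15 in cerebral vessels (limma adjusted p = 0.859) and 1.29 in cerebellar vessels (0.066), neither of them called. Inhba, another activin subunit, was called lower per mouse (-0.38), on a probe set above the floor on 3 of 12 arrays. All its knockout values were under the floor, at most 3.05 in cerebral and 3.08 in cerebellar vessels. It therefore passed the filter through control arrays alone, which read at most 3.77 and 3.29, and the call compares values around the floor. No gene was called by limma in either region among 5 latency genes, 5 secreted inhibitors, 5 Smads, 6 Smad regulators and 7 target genes. At an unadjusted p under 0.05 there were 2, 0, 1, 0 and 1 of them in cerebral vessels, in that order of roles, and 1, 3, 1, 0 and 1 in cerebellar vessels.

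**Figure D4:**
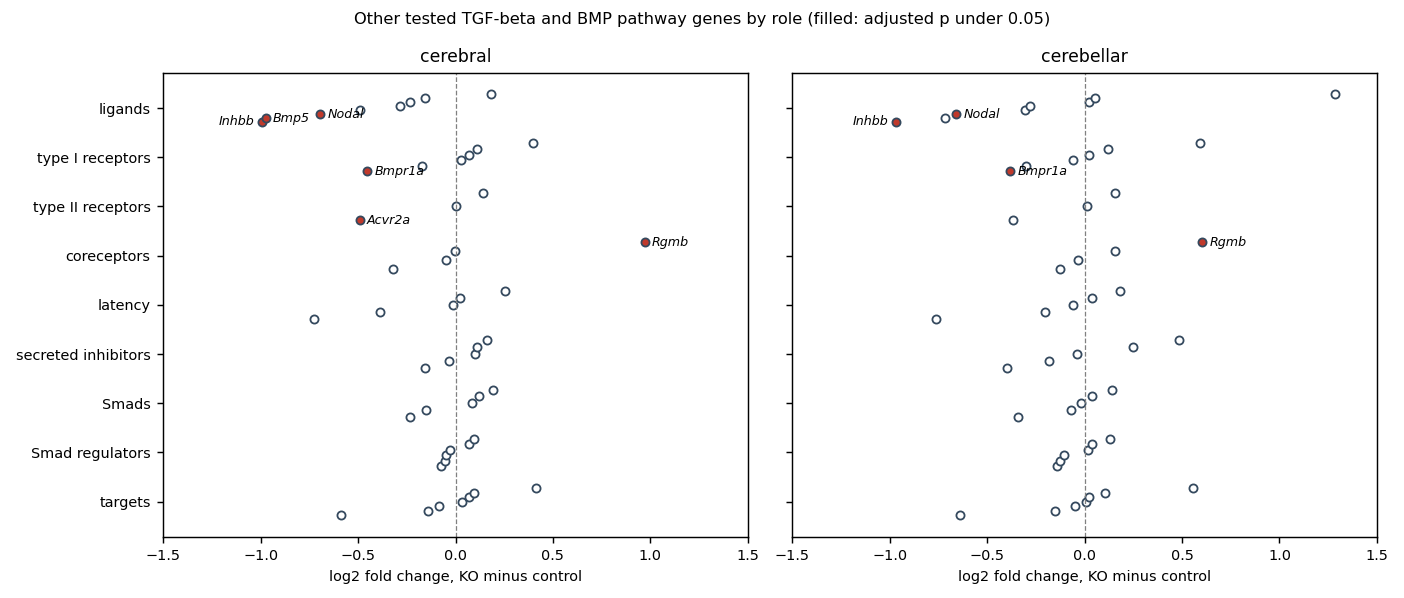
Log2 fold change, knockout minus control (x axis), of the 49 other tested pathway genes by role (y axis; the vertical spread within a role only separates points), in cerebral and cerebellar vessels; filled and named points passed an adjusted p of 0.05. Inhbb, Nodal and Bmpr1a lie left of 0 and Rgmb right of it in both panels.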

How the data were processed

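RNA of vessel fragments was measured on 12 Affymetrix arrays. The deposited log2 values per probe set were made by the authors with GCRMA 2.32.0, per the submitters' processing notes; GCRMA corrects background, normalises between arrays and summarises probe sets. They carry no detection calls, so a dim value is only near the floor. The number of arrays limits the precision. Replicates are separate mice, and arrays of a genotype that share a title number were treated as the same mouse.

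Of 45101 probe sets 34958 named 1 gene (platform annotation, symbols updated through a RefSeq gene table), 932 several and 9211 none. Probe sets above 3.27 on at least 3 arrays were kept, and the brightest stood for its gene. limma 3.58.1 on R 4.3.3 fitted 4 group means (8 residual degrees of freedom) or mouse means (4), two-sided, with Benjamini-Hochberg adjustment over 11717 genes. The fits were tested on simulated data.

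Same-numbered arrays of the 2 regions of a genotype deviated together (r of 0.371 to 0.705 between deviations from group means; Xist also matched in 6 of 6 mice). Same-numbered arrays of the 2 genotypes did not all do so (r of -0.166 to 0.259), and were not paired.

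All 10 genes were named in every comparison. Other pathway genes were named where called, up to 6 per comparison by size, and the 5 most similar genes for each called member. The members and all lists were chosen with earlier results of these data known.

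Alternatives covered the filter, probe sets, scaling, variance model, array weights, blocks, Xist as a covariate, the arrays in the fit and leaving out each array or mouse. Promoter sequences are RefSeq's (GRCm38.p6).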

Additional observations from a re-analysis of the deposited data

How the results depend on the processing

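Tgfb3 was called lower in both regions and per mouse in every processing alternative run (11, 11 and 10) and in every run without 1 array or mouse (12, 12 and 6). As Tgfb3 has a single probe set, the alternative that takes the mean of a gene's probe sets left its values unchanged. The number of the 10 genes called varied more. In cerebral vessels it was 2, but 1 with the mean of a gene's probe sets or with only the arrays compared, and 1 to 3 without 1 array. In cerebellar vessels it was 3, but 1 with no filter or with only the arrays compared, and 1 to 3 without 1 array. Per mouse it was 1, but 3 with array weights or with 12 arrays and the mouse as random replicate block, and 1 to 2 without 1 mouse. It stayed at 1 in knockout and 0 in control mice between regions, and at 0 for the difference of effects, in every alternative run. The filter at the 75th percentile left Bmp4 and Tgfb1 untested.

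With the replicate block for the number, Bmp4 was also called in cerebral (adjusted p = 0.049) and Smad7 in cerebellar vessels (adjusted p = 0.0369), for 3 and 4 genes called; no other call of the 10 genes changed under it. The mouse as random replicate block left the count within each region at 2 and 3. Among the 49 other pathway genes it called 1 higher and 6 lower in cerebral, 1 and 3 in cerebellar vessels, and 2 and 6 over both regions, with 6 of 6, 4 of 4 and 4 of 6 earlier calls among them. One dim probe set of Tgfbr1 gave 0.000513 for cerebellar minus cerebral in knockout mice, against -0.77. Sign changes with no call in either setting made up 11 of 628 values from processing alternatives. They made up 51 of 660 values from runs without an array or mouse and 17 of 54 with another probe set. These totals also include values that were called.

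Counts over all genes moved further: 310 to 1415 in cerebral vessels (748 as reported), 337 to 742 in cerebellar vessels (495) and 312 to 906 per mouse (472). Without 1 array or mouse they were 439 to 870, 302 to 496 and 237 to 473. Between regions they were 322 to 1947 in knockout (797) and 160 to 1078 in control mice (268), with 1947 and 966 for the mouse block, and 0 to 7 for the difference of effects (5). Without 1 array these were 366 to 1099, 79 to 323 and 1 to 20. The causes were not tested. The range of signal over background limits what the dim probe sets of Tgfb1, Tgfbr1 and Tgfbr2 can show.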

Other observations

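Some further genes of the pathway differed between the regions. Of the 49 tested, 8 were called higher and 2 lower in cerebellar than in cerebral vessels of knockout mice, and 39 were not called, where 6.8% of all genes were called. In control mice 6 were higher, 0 lower and 43 not called, where 2.29% of all genes were called. Both regions came from the same mice. With the mouse as a random block, a setting chosen for these genes after seeing the data, 12 were higher and 5 lower in knockout mice and 11 higher and 2 lower in controls. All 10 and 6 genes called without the block were called with it. Of 5 genes that handle latent TGF-beta, 2 were called in each genotype. Itgb8, an integrin subunit that activates latent TGF-beta, read 11.84 to 12.25 in cerebellar and 10.09 to 10.69 in cerebral vessels of knockout mice, and 11.58 to 11.97 in cerebellar and 10.27 to 10.38 in cerebral vessels of controls (3 arrays each). Its log2 differences were 1.67 in knockout and 1.48 in control mice (limma adjusted p = 0.00102 and 0.00263). Ltbp3, which binds latent TGF-beta, was higher by 1.08 and 0.89 log2 (adjusted p = 0.00565 and 0.0265), and Nodal by 1.01 and 0.98 (0.00464 and 0.0104). The other 3 latency genes, Ltbp1 (0.36 in knockout and 0.40 in control mice), Ltbp4 (-0.05 and 0.03) and Nrros (-0.29 and -0.08), were not called. Gdf10 was higher by 2.43 log2 in knockout mice (adjusted p = 0.00323), and Bmp5 (0.96) and the matrix protein Tgfbi (0.77) were called there too. The array maker marks the probe sets of Ltbp3 and Tgfbi as ones whose probes may also match other transcripts. In controls Nbl1, a secreted BMP antagonist (0.52), Bmpr1a (0.41) and Acvr1b, an activin receptor (0.37), were called. Nbl1 and Bmpr1a were not particular to controls. In knockout mice Nbl1 averaged 9.46 in cerebellar and 8.80 in cerebral vessels, and Bmpr1a 10.76 and 10.28. There 1 of 5 secreted inhibitors and 1 of 6 type I receptors were called higher, and 2 of 6 Smad regulators lower. Only the largest changes of each comparison are named here. Markers of cerebellar neurons were higher in cerebellar vessels, with 5 of 5 called in knockout and 2 of 5 in control mice. Pericyte markers (8 and 6 of 9 called) and fibroblast markers (4 and 3 of 8) were higher there too. The fibroblast count in controls includes Dpt, which read 3.63 to 3.66 in control cerebellar vessels. In every other group Dpt was at or under the floor on all arrays, so it passed the filter through control cerebellar arrays alone. Among the cerebellar neuron markers, Pcp2 was at or under the floor on all cerebral arrays of both genotypes. Calb1 was so on all cerebral arrays of knockout mice. Astrocyte markers were divided, with 3 and 2 of 7 called higher. In each genotype 5 of the 7 were positive and 2 negative. The negative ones were Slc1a2 (-0.46 in knockout and -0.69 in control mice) and Slc1a3 (-0.94 and -1.05), neither called. Choroid plexus markers had medians of 0.99 in knockout and 1.15 in control mice, with 5 of 5 positive in each and none called by limma (4 and 5 under 0.05 before adjustment). Of 10 microglia markers 9 were called lower in knockout mice and 0 in controls (6 under 0.05 before adjustment). The part of these markers was not tested.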
